A study of Mus musculus with 12 samples.

Results

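Genes for 10 inhibitors of WNT signalling were followed in newborn mouse calvaria, the flat bone of the skull vault. They were the secreted frizzled-related genes Sfrp1, Sfrp2, Sfrp4 and Frzb, the Dickkopf genes Dkk1, Dkk2 and Dkk3, Wif1, Notum, and Kremen1, which codes for a membrane receptor of Dickkopf proteins and is not itself secreted. They are 10 of 23715 genes with a value. They were picked by family with their changes in both mutant crosses in view, Sfrp4 in particular. Their values in the mutant comparisons are therefore given as a description. Where calls among them are counted in those comparisons, the counts are not tests of these genes.

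RNA was taken from 12 C57BL/6 mice in 4 groups of 3. P-Ctrl mice, labelled WT, were the littermates of P-KO mice, and the paper gives the controls of this cross as Med23 fl/fl, with floxed but undeleted alleles. P-KO mice, labelled Med23-/- with deletion specific to mesenchymal stem cells, carried the same floxed alleles and the Prx1-Cre transgene. R-WT and R-Het were WT and Runx2+/- littermates. MED23 is a subunit of the Mediator complex and RUNX2 is the transcription factor that directs osteoblast formation, and the study asked whether their loss changes the same genes. Prx1-Cre acts in limb and craniofacial mesenchyme and is not known to act in blood cells or osteoclasts. The mice are newborn by the labels, and the study's methods name the parietal bone and postnatal day 2.

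Neither targeted gene set its mutant group apart. Med23 stood at 5.32 ± 0.73 FPKM (SD, n = 3) in P-Ctrl and 5.30 ± 0.42 in P-KO, and Runx2 stood at 31.6 ± 5.39 in R-WT and 33.5 ± 2.76 in R-Het. FPKM is a level scaled to the length of the transcript and to the fragments of the library. The Med23 value covers the whole transcript, of which only some exons are deleted and only in Cre-expressing cells, and a mutant Runx2 allele may still be transcribed, so neither level checks the labels. Directions below are those of libraries labelled P-KO and R-Het. The libraries held roughly 7600000 to 11600000 fragments, with 9600000 to 11600000 in P-Ctrl, 8400000 to 9200000 in P-KO, 9200000 to 11600000 in R-WT and 7600000 to 10100000 in R-Het. Xist, expressed from the inactive X chromosome of females, was at 49.1 and 37.8 FPKM in P-Ctrl replicates 2 and 3, at 42.4 in R-WT replicate 1, and at 0.0663 or less in the other 9 libraries, so both mutant groups lacked a library with high Xist. P-Ctrl replicate 1 stood apart from the other controls of its cross in Sfrp2, Sfrp4 and Wif1. The labels do not say whether mice of a group came from separate litters, so the spread is that between these samples. Osteoblast markers were abundant in all 12 libraries, at 27307 to 58268 FPKM in sum over 12 genes, whereas of 6 epidermal markers Krt10 was at 1.88 to 4.25 FPKM, Krt15 reached 1.74, Lor 1.15 and Krt1 0.482, and the basal keratins Krt5 and Krt14 did not exceed 0.145.

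WNT proteins are secreted lipid-modified ligands that bind Frizzled receptors together with LRP5 or LRP6 and stabilise beta-catenin, which drives osteoblast formation and bone gain. Secreted frizzled-related proteins and WIF1 bind WNT proteins outside the cell. Dickkopf proteins such as DKK1 and DKK2 block the LRP co-receptors, and KREMEN1 binds these Dickkopf proteins and helps to remove LRP6 from the cell surface. DKK3 belongs to the family by sequence, and its action on WNT signalling is less clear. NOTUM is an enzyme that removes the lipid from WNT proteins. The antagonists differ in mechanism, and several have additional functions outside the pathway.

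Promoter sequences were looked at because RUNX2 binds DNA directly and beta-catenin acts through TCF/LEF factors. RefSeq promoter entries (GRCm38.p6, the assembly of mm10) were found for 5 of the 10 genes: Sfrp2, Frzb, Dkk1, Dkk2 and Wif1. Shown here, 5′ to 3′ on the strand of the gene, are the 250 bases before the listed start of Sfrp2, the gene with the largest rise in R-Het, of Wif1, which was lower there, and of Dkk1, the only one of the 5 with a RUNX core. Capitals mark the RUNX core TGTGGT or its complement ACCACA, and the TCF/LEF core CTTTGA or its complement TCAAAG, and no match of one motif overlapped a match of the other. The Sfrp2 window is chr3:83766071-83766320 on the plus strand, which lies inside RefSeq's gene record, since that record opens upstream of the start the promoter entry uses. The Wif1 window is chr10:121033754-121034003 on the plus strand, and the Dkk1 window chr19:30549497-30549746 on the minus strand.
Sfrp2: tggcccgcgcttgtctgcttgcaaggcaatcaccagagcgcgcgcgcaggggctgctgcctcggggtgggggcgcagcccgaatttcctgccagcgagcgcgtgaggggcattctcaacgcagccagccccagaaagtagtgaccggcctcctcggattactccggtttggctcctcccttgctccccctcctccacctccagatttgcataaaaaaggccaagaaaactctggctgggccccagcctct
Wif1: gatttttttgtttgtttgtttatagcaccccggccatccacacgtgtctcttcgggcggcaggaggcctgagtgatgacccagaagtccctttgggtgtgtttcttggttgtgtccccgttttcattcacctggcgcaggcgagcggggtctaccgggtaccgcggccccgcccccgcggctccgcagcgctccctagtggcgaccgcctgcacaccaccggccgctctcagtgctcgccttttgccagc
Dkk1: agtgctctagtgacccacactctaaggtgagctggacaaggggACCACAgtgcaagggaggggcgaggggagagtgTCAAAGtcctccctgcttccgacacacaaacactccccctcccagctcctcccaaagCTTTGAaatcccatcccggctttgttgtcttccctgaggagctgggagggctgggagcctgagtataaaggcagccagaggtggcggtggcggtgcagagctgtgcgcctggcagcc

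Dkk1 held 1 RUNX core and 2 TCF/LEF cores, and the Sfrp2 and Wif1 windows held neither. Of the other entries, Frzb held 1 TCF/LEF core and no RUNX core, and Dkk2 held neither. Of all 32851 RefSeq promoters cut to the same length, 14% held the RUNX core and 13.8% the TCF/LEF core on either strand. A match is a run of letters and no evidence of binding, and its absence concerns this window only.

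In control calvaria, 3 of the 10 genes made up most of the transcripts. Over the 6 control mice of both crosses, Sfrp2 had a mean level of 259.8 ± 49.8 FPKM (SD, n = 6), Wif1 of 238.8 ± 76.1 and Sfrp4 of 166.3 ± 43.0, and the ranges of these neighbours overlapped. Dkk3 followed at 46.4 ± 3.97 FPKM, clear of Sfrp4 above and of Kremen1 below. Kremen1 at 15.6 ± 2.49, Dkk1 at 15.4 ± 1.62 and Dkk2 at 13.0 ± 2.71 FPKM could not be placed in order beyond their spread. Sfrp1 at 7.84 ± 0.77 and Notum at 7.49 ± 2.31 FPKM overlapped as well, and Frzb was lowest at 4.43 ± 0.65, below every Notum value. Dkk2 and Sfrp1 did not overlap. Each gene was represented by 1 RefSeq transcript, so no value was split over isoforms. By the estimate of depth, the fewest fragments behind any value were roughly 59, for Notum in R-Het, and no Sfrp2 or Wif1 value on fewer than roughly 3020.

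The control groups of the crosses were compared first, a contrast that played no part in the choice of genes. None of the 10 genes passed an adjusted p of 0.05 between R-WT and P-Ctrl (limma, Benjamini-Hochberg over 13059 genes), where 0.0383% of all genes tested did (0.023% lower, 0.0153% higher). An unadjusted p under 0.05 was found for 3 of the 10 and for 1232 of the 13059. Dkk2 came nearest, with 9.25, 10.6 and 12.8 FPKM in P-Ctrl and 15.0, 14.2 and 16.4 in R-WT, a log2 difference of 0.46 (SE 0.12, adjusted p = 0.364 in limma). R-WT did not overlap P-Ctrl for 3 genes, with Dkk2 and Sfrp1 higher and Dkk1 lower, where 14.7% of all genes tested did not overlap (10.8% higher, 3.89% lower). Cross and any batch cannot be told apart in this contrast.

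**Figure D1:**
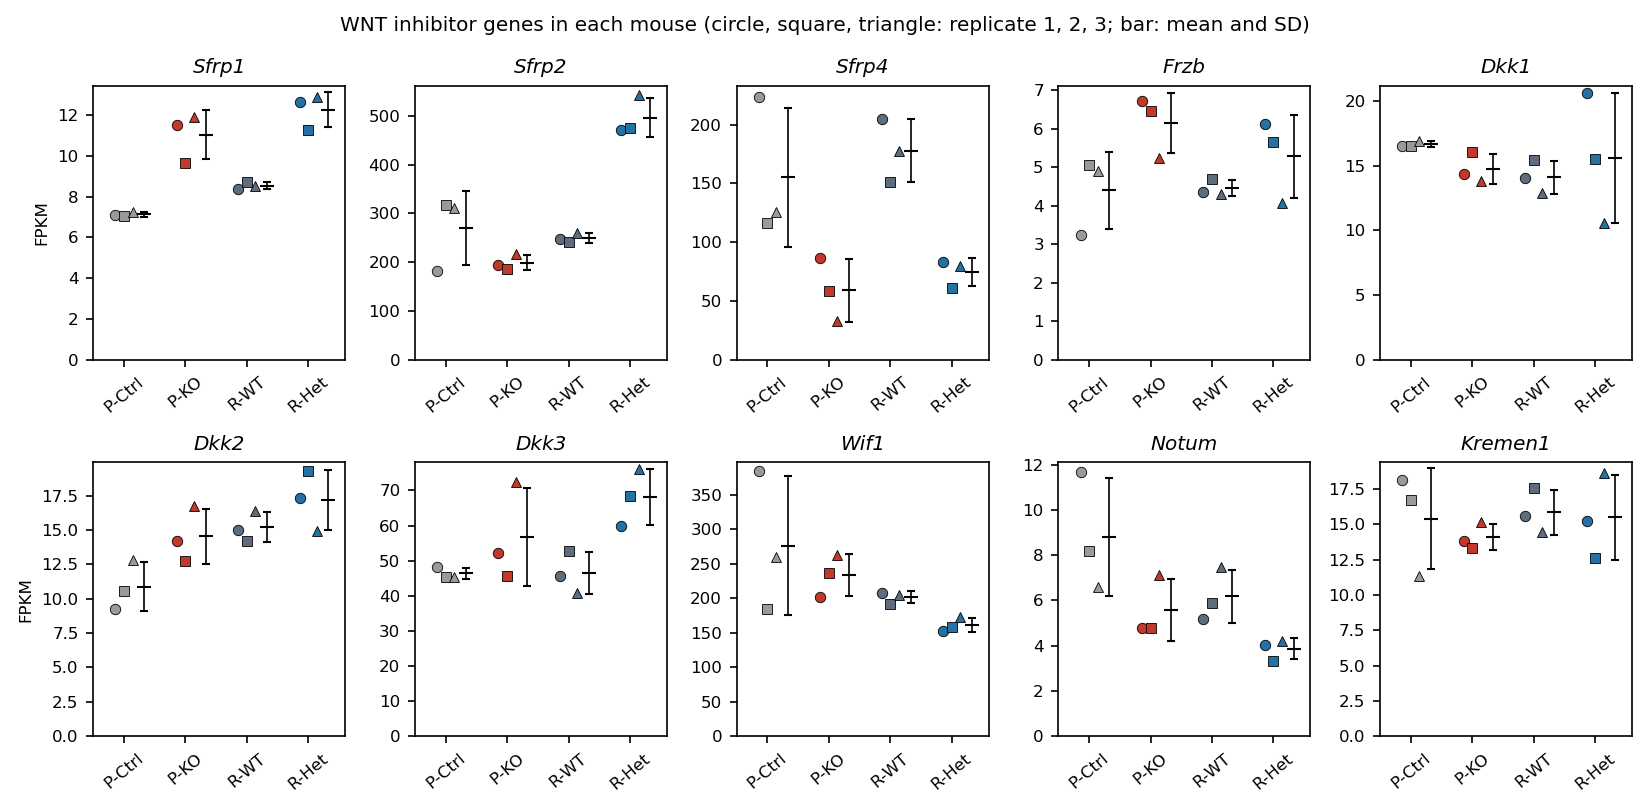
Level of each WNT inhibitor gene in FPKM (vertical axes from 0, a scale per gene) in the 3 mice of each group, with circle, square and triangle for replicates 1, 2 and 3 and bars for mean and SD. Sfrp4 lay below its control mice in all 6 mutant mice, at 32.5 to 86.2 FPKM against 116 to 223, whereas Sfrp2 lay above all of its controls in R-Het alone.

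Sfrp4 had the most negative fold change of the 10 genes in both crosses. Its product binds WNT proteins and is made by osteoblasts, and loss of the gene in humans causes a disorder of bone modelling with thin cortical bone. Sfrp4 lies at chr13:19623175-19632825 in RefSeq's record on GRCm38. The 3 P-Ctrl mice had 223, 116 and 125 FPKM and the 3 P-KO mice 86.2, 58.7 and 32.5. The highest P-KO value was below the lowest P-Ctrl value, and the P-Ctrl spread came from replicate 1. The mean was 2.62 times lower in P-KO (155 ± 59.3 against 59.1 ± 26.8 FPKM), with a log2 fold change of -1.42 (SE 0.37), or -1.12 without P-Ctrl replicate 1. All log2 fold changes here are of FPKM + 1 from the limma fit, with its standard error.

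Sfrp4 in the Runx2 cross was at 205, 151 and 177 FPKM in R-WT and at 82.7, 60.9 and 79.8 in R-Het. The groups were again apart, with less spread inside each than in the Med23 cross. The log2 fold change was -1.24 (SE 0.15). Leaving out any 1 mouse kept it between -1.36 and -1.11, and between -1.74 and -1.05 in the Med23 cross. Sfrp4 was 1 of 2 genes among the 10 whose mutants were beyond all controls in the same direction in both crosses. The other was Sfrp1, which was higher. Of all genes tested, 1.7% were lower in that way in both crosses and 3.03% higher, and nothing is read from the count because these values guided the choice.

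Sfrp1 codes for another WNT-binding frizzled-related protein, one whose loss raises bone mass in mice. It lies at chr8:23411383-23449632. It measured 7.12, 7.03 and 7.27 FPKM in P-Ctrl against 11.5, 9.67 and 11.9 in P-KO. The control mice were almost identical and every P-KO mouse was above them, for a ratio of means of 1.55 and a log2 fold change of 0.56 (SE 0.10). R-WT mice had 8.36, 8.70 and 8.53 FPKM and R-Het mice 12.6, 11.3 and 12.9, a ratio of 1.44 and a log2 fold change of 0.48 (SE 0.09). The direction was upward under all 13 alternatives in each cross. Leaving out a mouse could not turn it, because the groups did not overlap. Dropping the filter, the replicate block and the fit of all 12 mice leave the estimate itself unchanged.

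Sfrp2 had a different course in each cross, given side by side. The gene, at chr3:83765750-83774314 and with the promoter shown above, codes for a frizzled-related protein found in skeletal mesenchyme. R-WT mice had 247, 241 and 260 FPKM and R-Het mice 472, 475 and 544. Every R-Het mouse was far above every R-WT mouse, the ratio of means was 1.99 and the log2 fold change 0.99 (SE 0.09), the largest upward value among the 10. P-Ctrl mice had 182, 317 and 311 FPKM and P-KO mice 194, 187 and 217. These groups overlapped, since P-Ctrl replicate 1 was below all P-KO mice and the other controls were above them. The log2 fold change of -0.40 (SE 0.21) became -0.66 without that mouse and 0.12 with the sex of the library, read from Xist, as a covariate, in which case P-Ctrl replicate 1 is the only control matched to P-KO.

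Opposite values of Sfrp2 and Sfrp4 changed their balance within a mouse. Sfrp2 transcripts outnumbered Sfrp4 transcripts, per length, by 1.21, 1.60 and 1.47 to 1 in R-WT and by 5.71, 7.80 and 6.81 to 1 in R-Het. In the Med23 cross the ratio was 0.817, 2.73 and 2.48 in P-Ctrl and 2.25, 3.18 and 6.68 in P-KO, with overlap.

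Frzb, or Sfrp3, is known from cartilage and was the least abundant of the 10 genes in control mice. It stood at 3.24, 5.06 and 4.89 FPKM in P-Ctrl and at 6.72, 6.47 and 5.25 in P-KO. The groups did not overlap, yet the nearest mice were close, and the log2 fold change was 0.42 (SE 0.16), or 0.25 without P-Ctrl replicate 1. R-WT values of 4.35, 4.70 and 4.32 FPKM overlapped R-Het values of 6.14, 5.65 and 4.08, with a log2 fold change of 0.19 (SE 0.14) that was 0.09 without R-Het replicate 1 and 0.34 without R-Het replicate 3.

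Wif1 codes for WNT inhibitory factor, a secreted WNT-binding protein of another structure than the frizzled-related proteins, and lies at chr10:121034004-121100642. R-WT mice had 208, 192 and 205 FPKM and R-Het mice 153, 158 and 173. The mutants were all lower, by -0.32 (SE 0.09) on the log2 scale. In the Med23 cross it was at 385, 184 and 259 FPKM in P-Ctrl and at 202, 236 and 262 in P-KO, which overlapped throughout. The log2 fold change of -0.19 (SE 0.25) turned to 0.08 without P-Ctrl replicate 1.

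Notum, the WNT lipid-removing enzyme, lies at chr11:120653788-120661193. It was at 5.18, 5.88 and 7.47 FPKM in R-WT and at 4.05, 3.34 and 4.20 in R-Het, a log2 fold change of -0.55 (SE 0.14) with no overlap. P-Ctrl mice had 11.7, 8.17 and 6.57 FPKM and P-KO mice 4.79, 4.80 and 7.13. A single P-KO mouse, replicate 3, lay among the controls, and the log2 fold change was -0.56 (SE 0.22), or -0.36 without P-Ctrl replicate 1.

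Dkk3 was the most abundant of the Dickkopf genes. It was at 45.6, 52.9 and 40.9 FPKM in R-WT and at 59.97, 68.5 and 76.0 in R-Het, so that all R-Het mice were higher, by 0.54 (SE 0.12) on the log2 scale. In the Med23 cross Dkk3 was at 48.2, 45.5 and 45.4 FPKM in P-Ctrl and at 52.1, 45.8 and 72.4 in P-KO. P-KO replicate 3 carried that difference of 0.26 (SE 0.16), which was 0.07 without it.

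Dkk1, the LRP5 and LRP6 blocker whose neutralisation builds bone, was steady in P-Ctrl at 16.5, 16.6 and 16.9 FPKM and slightly lower in every P-KO mouse at 14.4, 16.0 and 13.8. The log2 fold change was only -0.17 (SE 0.09). R-WT mice had 14.04, 15.4 and 12.9 FPKM, and R-Het mice spread on both sides of them at 20.7, 15.5 and 10.6 (0.09, SE 0.21). That value was -0.12 without R-Het replicate 1 and 0.33 without R-Het replicate 3. Dkk2, which can block or weakly activate the pathway depending on context, overlapped in both crosses, with 14.2, 12.8 and 16.7 FPKM in P-KO, and 17.3, 19.3 and 14.9 in R-Het. Its log2 fold changes were 0.39 (SE 0.14) and 0.16 (SE 0.11), the latter 0.08 without R-Het replicate 2 and 0.26 without R-Het replicate 3.

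Kremen1, the Dickkopf receptor at chr11:5191551-5261713, showed the smallest differences. P-Ctrl mice had 18.2, 16.7 and 11.3 FPKM and P-KO mice 13.8, 13.3 and 15.2. R-WT mice had 15.5, 17.6 and 14.4 and R-Het mice 15.2, 12.6 and 18.6. The groups overlapped in both crosses, with log2 fold changes of -0.10 (SE 0.17) and -0.04 (SE 0.14) whose sign changed when single mice were left out.

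**Figure D2:**
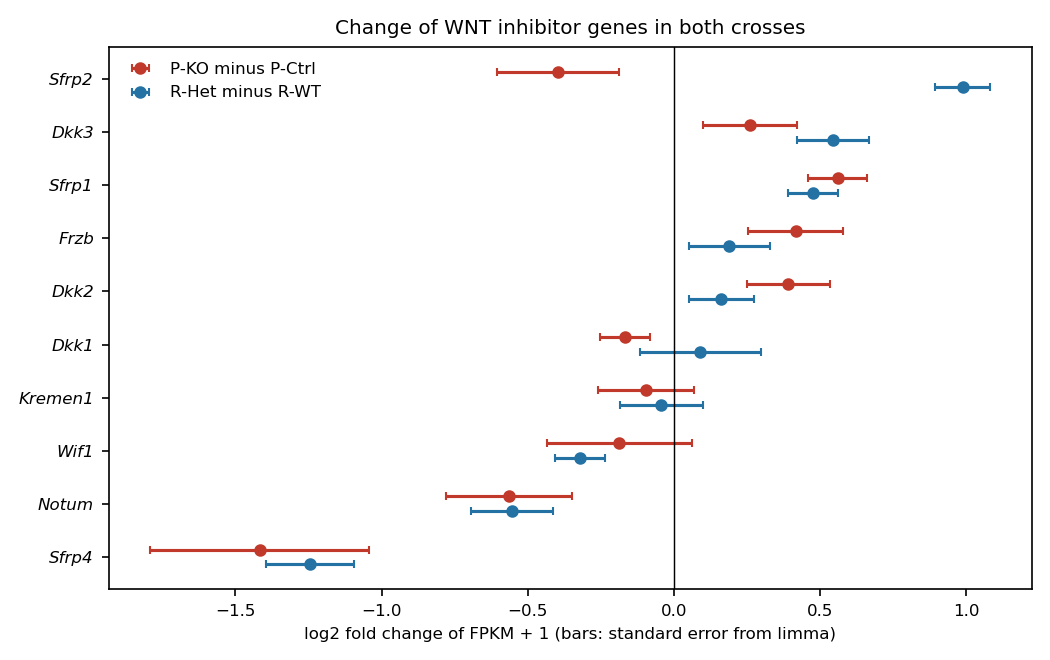
Log2 fold change of FPKM + 1 (horizontal axis) of each gene in P-KO against P-Ctrl and in R-Het against R-WT, with bars for the standard error from limma. Sfrp4 is lowest in both crosses, at -1.42 and -1.24, and the widest gap between the crosses is that of Sfrp2, at -0.40 and 0.99, for which no test of the difference is given because these values guided the choice of genes.

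Counted over all 10, mutants did not overlap controls for 2 lower genes (Sfrp4, Dkk1) and 2 higher genes (Sfrp1, Frzb) in the Med23 cross, against 7.68% and 19.6% of all genes tested (27.3% in either direction). In the Runx2 cross they did not overlap for 3 lower genes (Sfrp4, Wif1, Notum) and 3 higher genes (Sfrp1, Sfrp2, Dkk3), against 10.4% and 10.7% (21.1% in either direction). With the adjusted p of 0.05, 1 gene was called in the Med23 cross (Sfrp1, higher), where 1.57% of genes were called, 1.01% higher and 0.559% lower, and 3 in the Runx2 cross (Sfrp4 lower, Sfrp1 and Sfrp2 higher), where 1.89% were called, 1.49% lower and 0.398% higher. Nothing is read from these counts, since both contrasts were used in choosing the genes. The median log2 fold change over the 10 was -0.13 in the Med23 cross, beside 0.06 over all genes tested, and 0.13 in the Runx2 cross, beside 0.02. All 10 genes passed the filter of 1 FPKM in 3 mice.

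The make-up of the inhibitor transcripts is given as shares of their sum. Sfrp2 made up 33.8 ± 1.39% of the summed FPKM of the 10 genes in R-WT and 57.1 ± 1.03% in R-Het. Sfrp4 went from 23.9 ± 2.61% to 8.55 ± 1.23% and Wif1 from 27.3 ± 0.18% to 18.5 ± 0.43%. The R-Het share of each of these genes lay outside the R-WT range. In the Med23 cross Sfrp4 made up 18.8 ± 5.12% in P-Ctrl and 9.76 ± 4.70% in P-KO, while Sfrp2 stood at 34.2 ± 12.4% and 32.4 ± 0.78%. The sum itself was 811 ± 89.0 FPKM in P-Ctrl, 615 ± 34.6 in P-KO, 739 ± 32.8 in R-WT and 870 ± 58.7 in R-Het.

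**Figure D3:**
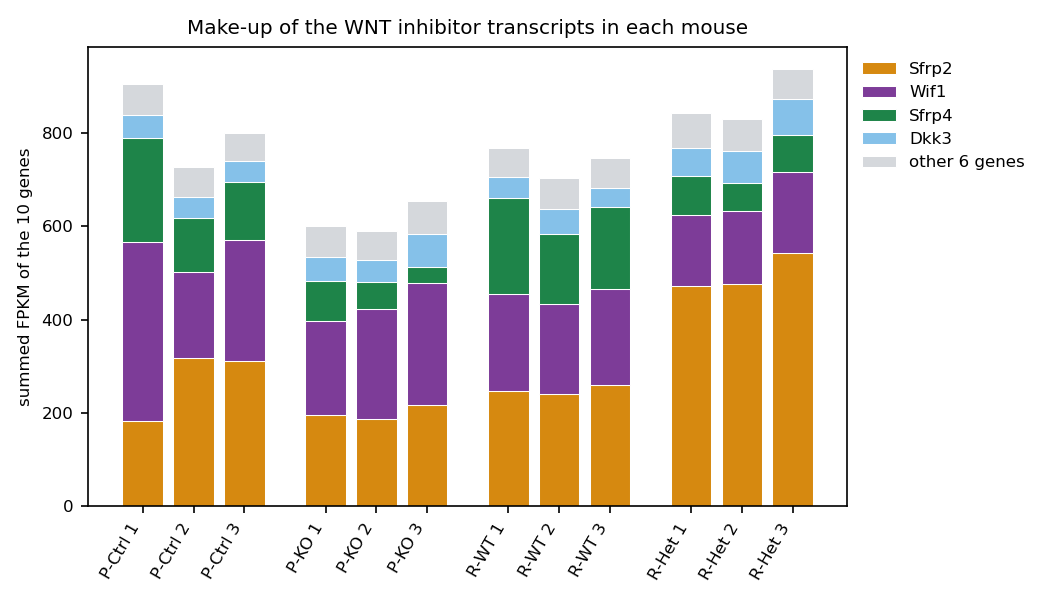
Stacked FPKM (vertical axis) of the 10 WNT inhibitor genes in each of the 12 mice, with Sfrp2, Wif1, Sfrp4 and Dkk3 in colour and the other 6 genes in grey. Sfrp2 fills 57.1% of the R-Het bars and 33.8% of the R-WT bars on average, and the Sfrp4 segment is narrower in every mutant mouse than in any control of its cross.

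In whole calvaria, fewer cells of a type and less RNA per cell cannot be told apart. Values of cell type markers are therefore set beside the changes. For comparison with the counts below, 2781 of all 13059 genes tested had an unadjusted p under 0.05 in the Med23 cross. In the Runx2 cross 2013 had one. The 12 osteoblast markers summed to 54632 to 58268 FPKM in P-Ctrl and 27307 to 35977 in P-KO, without overlap. All 12 were negative, 2 passed the test and 10 had an unadjusted p under 0.05. The median log2 fold change was -0.49 where that of all genes was 0.06. The 2 were the osteocalcin genes Bglap (9736 ± 1669 to 2663 ± 1040 FPKM, log2 fold change -1.95, SE 0.32, adjusted p = 0.0401) and Bglap2 (5063 ± 477 to 1553 ± 526, -1.77, SE 0.26, adjusted p = 0.0327), both by limma, in the mice where Sfrp4 was lower. Both kept their sign without any 1 mouse, but the adjusted p then ran from 0.0595 to 0.13 for Bglap and from 0.0447 to 0.114 for Bglap2. In the Runx2 cross, where the log2 fold change of Sfrp4 was -1.24, the osteoblast sum ranged from 43528 to 51122 FPKM in R-WT and 32068 to 44532 in R-Het, with overlap, none of the 12 passed the test, 2 had an unadjusted p under 0.05, and the median was -0.04. Their part in the result was not tested.

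Of 8 markers of suture and periosteal mesenchyme, 7 were positive in R-Het, where Sfrp2, Sfrp1 and Dkk3 were higher, with a median of 0.34 and 7 at an unadjusted p under 0.05. In P-KO, 6 of 8 were positive, with a median of 0.23. Msx2, a homeobox gene of cranial sutures, passed the test in the Runx2 cross only. It went from 9.88 ± 0.25 FPKM in R-WT to 15.0 ± 2.01 in R-Het (log2 fold change 0.55, SE 0.10, adjusted p = 0.0474 in limma), although its adjusted p was 0.0568 to 0.184 when any 1 mouse was left out. The list summed to 1678 to 1943 FPKM in R-WT and 1789 to 2281 in R-Het, which overlapped. The largest part of that sum was Postn, the 1 negative gene, at 1073 ± 150 FPKM in R-WT and 1068 ± 171 in R-Het. In the Med23 cross 0 of 8 passed, with 3 at an unadjusted p under 0.05.

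Osteoclast markers went from 5031 to 6312 FPKM in R-WT to 3298 to 4116 in R-Het, without overlap. All 6 were negative, 2 fell by the test and all 6 had an unadjusted p under 0.05. Dcstamp, needed for osteoclast fusion, fell from 33.5 ± 3.67 to 16.5 ± 2.57 FPKM (adjusted p = 0.0185 in limma), and Calcr, the calcitonin receptor, from 2.47 ± 0.48 to 0.70 ± 0.26 (adjusted p = 0.0320). Without 1 mouse these adjusted p ran from 0.0304 to 0.0679 and from 0.0444 to 0.13. In P-KO all 6 were negative, none passed the test and none had an unadjusted p under 0.05. The endothelial gene Pecam1 also fell in R-Het, from 21.2 ± 0.23 to 13.9 ± 0.66 FPKM (adjusted p = 0.0185 in limma, 0.0428 to 0.0814 without 1 mouse). It was the only 1 of 6 endothelial markers called. All 6 were negative in R-Het, with a median of -0.26 and 2 at an unadjusted p under 0.05. In P-KO 3 of the 6 were negative and 3 positive, with 0 called and 1 at an unadjusted p under 0.05.

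Skeletal muscle genes differed most between libraries. Their sum ranged from 2139 to 6387 FPKM in R-WT and from 30.9 to 209 in R-Het, and 9 of 10 fell by the test, the median log2 fold change being -4.76. Of the 9, Myh8 and Tnnt3 passed in each of the 6 fits that left out 1 mouse, and the others did not pass in all of them. In the Med23 cross the sum ranged from 26.3 to 1549 FPKM in P-Ctrl and from 665 to 4654 in P-KO, with a positive median of 2.99 and 0 of 10 called, 2 of them at an unadjusted p under 0.05. Sfrp4 was lower in both crosses while the muscle sum was lower in R-Het and, with overlap, higher in P-KO. In P-KO the 4 tested osteocyte markers had a median of -0.89 with none called and 2 at an unadjusted p under 0.05. The cartilage gene Col2a1 fell there (13.1 ± 1.90 to 6.77 ± 1.05 FPKM, log2 fold change -0.86, adjusted p = 0.0404 in limma, 0.0722 to 0.133 without 1 mouse), the only one of 12 cartilage genes called, with 7 negative and 5 positive and a median of -0.28. In P-KO 6 of the 12 had an unadjusted p under 0.05. In R-Het 11 of the 12 were positive, with a median of 0.49 and Col2a1 at 0.75 (9.89 ± 2.98 to 18.7 ± 11.3 FPKM). There none was called and 3 had an unadjusted p under 0.05. None of the tested tendon, adipocyte, Schwann cell or erythroid markers was called in either cross. At an unadjusted p under 0.05 in P-KO were 5 of 6 tendon, 4 of 6 Schwann cell, 1 of 4 tested adipocyte and 2 of 5 tested erythroid markers. In R-Het the counts were 4 of 6, 1 of 6, 2 of 4 and 5 of 5 in the same order. The part of these cells in the inhibitor values was not tested.

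The other 85 listed genes of the pathway, 64 of them above the filter, gave 0 calls in the Med23 cross, with 14 at an unadjusted p under 0.05. The Runx2 cross gave 1 call, with 13 at an unadjusted p under 0.05. Among all 13059 genes tested, 2781 were under that p in the Med23 cross and 2013 in the Runx2 cross. Set tests were not run, so nothing is read from the 14 and the 13. The 1 call in the Runx2 cross was Wnt2b, a canonical WNT ligand. R-WT mice had 6.31, 7.17 and 6.33 FPKM and R-Het mice 3.52, 2.90 and 2.43. It fell by 0.95 on the log2 scale (SE 0.12, adjusted p = 0.0176 in limma), but the adjusted p was 0.0652 without R-WT replicate 1, the R-WT library with high Xist. P-KO mice had 2.16, 1.77 and 1.65 FPKM against 6.65, 3.15 and 4.80 in P-Ctrl, a log2 fold change of -0.996 (SE 0.22) that did not pass (adjusted p = 0.0721 in limma).

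Among 7 tested inhibitors outside the 10 genes, none was called in either cross, with 2 at an unadjusted p under 0.05 in each. Igfbp4, a growth factor binding protein that also hinders Frizzled and LRP6 binding of WNT proteins, was the most abundant, at 575 ± 112 FPKM in P-Ctrl, 676 ± 70.9 in P-KO, 598 ± 53.3 in R-WT and 662 ± 41.7 in R-Het. Shisa3, which holds back Frizzled receptors inside the cell, ran at 49.2 ± 6.11, 45.3 ± 1.19, 63.7 ± 5.59 and 72.3 ± 0.93 FPKM in the same order. Sost, the osteocyte inhibitor of LRP5 and LRP6, was singled out after its values were seen. It was at 13.0, 17.4 and 18.1 FPKM in P-Ctrl and 4.72, 6.20 and 10.3 in P-KO, apart from each other but short of the test in limma (log2 fold change -1.14, SE 0.25, adjusted p = 0.0715 in limma). In R-WT it was at 7.25, 12.4 and 10.4 FPKM and in R-Het at 13.0, 16.2 and 9.35, which overlapped.

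Among ligands, Wnt9a and Wnt2 were the most abundant, at 17.1 ± 1.28 and 14.9 ± 4.82 FPKM in P-Ctrl, and 8 of 9 tested ligands were negative in P-KO, with 4 at an unadjusted p under 0.05 and none called. In R-Het, 6 of 9 were positive. Of the 16 receptors tested, among them Ryk at 57.3 ± 3.52 and Fzd1 at 23.4 ± 3.73 FPKM in P-Ctrl, none was called in either cross, with 2 at an unadjusted p under 0.05 in each. Wls, which carries WNT proteins to the cell surface, was at 114 ± 5.76 FPKM in P-Ctrl and 135 ± 8.64 in P-KO, and at 113 ± 2.82 in R-WT and 126 ± 8.57 in R-Het, and did not pass in either (adjusted p = 0.165 and 0.435 in limma). Lgr4, an R-spondin receptor, ran between 16.9 and 18.4 FPKM in the 4 group means.

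Of the 15 core components tested, Ctnnb1, which codes for beta-catenin, was the most abundant, at 439 ± 31.2 FPKM in P-Ctrl, 500 ± 29.8 in P-KO, 416 ± 6.87 in R-WT and 409 ± 7.01 in R-Het. The kinase gene Csnk1a1 followed at 95.5 ± 3.32, 110 ± 0.64, 99.9 ± 3.16 and 103 ± 9.63 FPKM. None of the 15 was called in either cross, and 1 in each had an unadjusted p under 0.05. None of 10 tested beta-catenin targets was called either, with 3 in each cross at an unadjusted p under 0.05. The most abundant target, Tnfrsf19, was at 97.6 ± 28.0 FPKM in P-Ctrl and 53.9 ± 5.39 in P-KO (adjusted p = 0.0811 in limma), and at 87.1 ± 6.75 in R-WT and 99.6 ± 9.11 in R-Het. Ccnd1, the cyclin D1 gene, was at 36.1 ± 1.42, 42.4 ± 7.87, 35.3 ± 2.35 and 39.0 ± 1.72 FPKM in the 4 groups in the same order.

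In sign, 54 of the 64 pathway genes were positive in R-Het, where 56.1% of all genes tested were. Their median was 0.15 where that of all genes tested was 0.02. In P-KO 30 of the 64 were positive, where 61.3% of all genes tested were, with a median of -0.03 where that of all was 0.06. The difference between the crosses was tested for each of the 64 by an interaction contrast of all 12 mice. None of the 64 passed, and the lowest adjusted p was 0.0779 in limma. In that contrast 0.153% of all genes passed (0.0613% with a lower and 0.0919% with a higher change in the Runx2 cross). An unadjusted p under 0.05 was found there for 12 of the 64 and for 1992 of all 13059 genes tested.

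**Figure D4:**
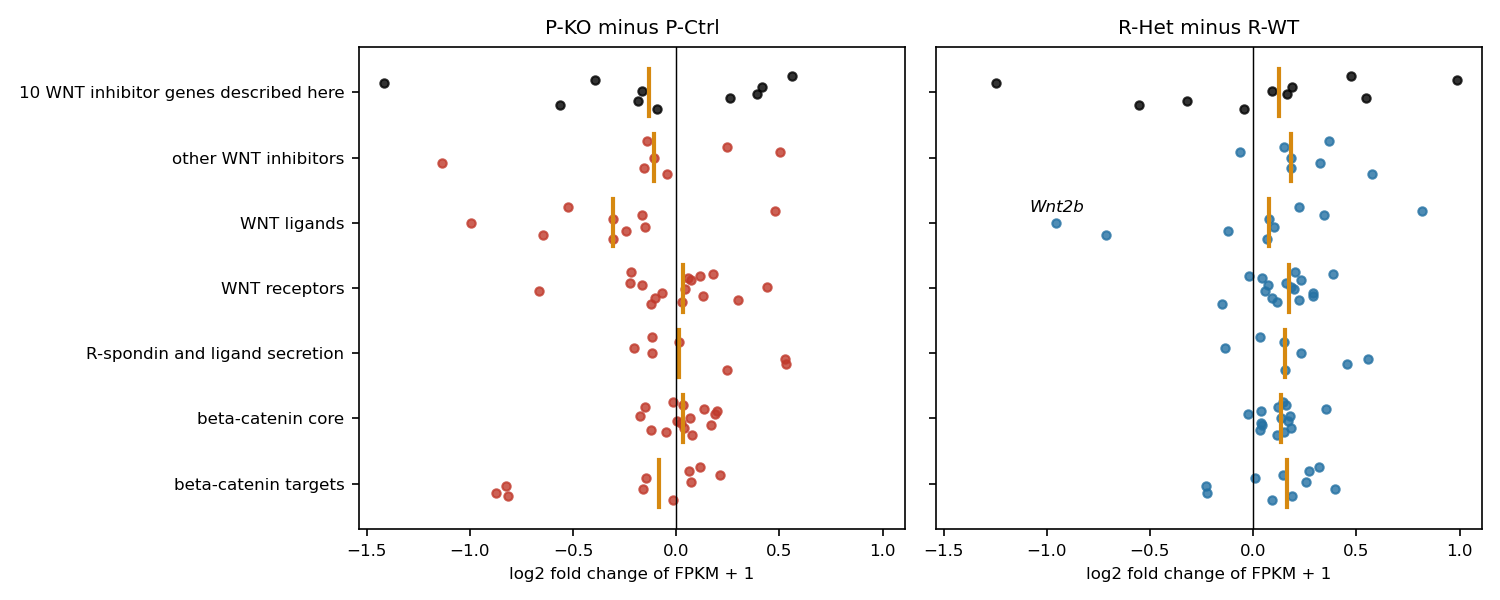
Log2 fold change of FPKM + 1 (horizontal axis, the same scale in both panels) of the 10 inhibitor genes and of 64 other WNT pathway genes by list, with 1 point per gene and an orange line at the median of each list. Wnt2b, at -0.95 in R-Het, is the only named point because it alone among the 64 passed the test, while Sfrp4 at -1.42 and -1.24 marks the left edge of the top row.

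Finally, genes whose level followed that of Sfrp4 were sought among 8767 genes with a mean of at least 5 FPKM. Over log2 values in 12 mice the 5 highest Pearson correlations were with Ccn5 (r = 0.959), Slc27a1 (0.956), Serpine2 (0.931), Edem1 (0.929) and Pheta1 (0.928). These points share the group differences. Ccn5, a matricellular gene also known as Wisp2, had group means of 57.1 FPKM in P-Ctrl, 17.2 in P-KO, 55.8 in R-WT and 31.7 in R-Het. Over deviations from the 4 group means, which remove the group differences, the 5 were Ccn5 (0.973), Slc30a1 (0.958), Dync2li1 (0.940), Shtn1 (0.939) and Tmem192 (0.938). Ccn5 headed both orders. Among the inhibitors the deviations of Sfrp2 (-0.626) and Dkk2 (-0.607) ran most opposite to those of Sfrp4, and those of Wif1 (0.267) most with them. Inside its groups Sfrp4 spread more in the Med23 cross (SE of its log2 fold change 0.37) than in the Runx2 cross (0.15). The correlations of deviations therefore rest mostly on mice of the Med23 cross, among them P-Ctrl replicate 1. With 12 mice and 8767 genes all these correlations are descriptions without a p.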

How the data were processed

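Calvarial total RNA of 12 mice was sequenced by the authors after Trizol extraction and TruSeq preparation. They deposited 1 FPKM value per RefSeq transcript and mouse. Their processing notes name Bowtie 0.12.8 and mm10, and the program that estimated FPKM is not given in the sources used here. FPKM values of a symbol's transcripts were summed (30411 transcripts, 23715 genes). FPKM is relative to each library, so a few abundant genes can shift all others. Read counts were not used here, so depth was estimated from the smallest values with GENCODE M21 lengths and is rough.

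The 13059 genes that reached 1 FPKM in 3 or more mice were fitted as log2(FPKM + 1) with limma 3.58.1 in R 4.3.3, with a mean-variance trend, 3 mice against 3 without covariates, and Benjamini-Hochberg adjustment over all 13059 (threshold 0.05). The difference between crosses was an interaction contrast of all 12 mice. The fit was checked on simulated data with known changes. Groups and replicate numbers follow the labels. The members and gene lists were chosen with earlier results of these data known, and set tests were not run. Genes named besides the 10 were the called ones of each list (muscle genes as a count), the 2 most abundant per pathway list and the 5 most like Sfrp4 by each measure. Alternatives were a pseudocount of 0.1, no filter, the replicate number as a block, 1 fit of all 12 mice, FPKM rescaled to the same sum or upper quartile, the sex of the library (Xist above 1 FPKM) as a covariate, and each mouse left out. Tables were made in Python 3.11.15 (pandas 2.3.3 and numpy 2.4.6), and plots in matplotlib 3.10.9.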

Additional observations from a re-analysis of the deposited data

How the results depend on the processing

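With 3 mice a group and values that lack counts, the number of genes called was unstable. The sign of the log2 fold change stayed the same under all 13 alternatives in each cross for Sfrp4 and Notum (lower). It did so too for Sfrp1, Frzb, Dkk2 and Dkk3 (higher). A sign asks less than a call, and no left-out mouse can turn it where the groups do not overlap. Dropping the filter, the replicate block and the fit of all 12 mice leave the estimate unchanged, so they cannot turn it either. In the Runx2 cross the sex covariate repeats the estimate without R-WT replicate 1 (Notum -0.66 in both). These signs are a description, since these values guided the choice of genes. In the Med23 cross 205 genes were called (73 lower, 132 higher). The count was 35 without the filter on low values, 717 with all 12 mice in 1 fit, 89 with sex as a covariate, and 107 (65 lower, 42 higher) with FPKM rescaled to the same sum, and the split was 84 lower and 66 higher with the same upper quartile. Leaving out 1 mouse left between 0 and 35, with 1965 genes at an unadjusted p under 0.05 where it was 0. In the Runx2 cross 247 genes became 18 without the filter, 95 with all 12 mice and 34 with sex as a covariate, and between 34 and 169 without 1 mouse. Of the 10 inhibitors, the 1 called in the Med23 cross became 0 without the filter, with either rescaling, with sex or without any 1 mouse, and 2 with all 12 mice. The 3 called in the Runx2 cross became 0 without the filter and 1 with sex, and between 1 and 2 without 1 mouse. Other WNT pathway genes called in the Med23 cross rose from 0 to 7 with all 12 mice, and to 1 with the upper quartile and 1 with sex. In the Runx2 cross the 1 called became 0 without the filter and 0 with sex, and between 0 and 2 without 1 mouse. Between the control groups 5 genes became 9 without the filter and 8 with all 12 mice, and between 4 and 10 without 1 mouse. For the difference between the crosses 20 became 2 without the filter and 37 with the same sum, and between 2 and 164 without 1 mouse. The cause of these shifts was not tested. Nothing is read from the calls of the 10 inhibitors, since both mutant contrasts were used in choosing them. With sex as a covariate the log2 fold changes in the Med23 cross were -2.005 for Sfrp4, -0.97 for Notum, -0.73 for Wif1 and 0.75 for Frzb. In that fit P-Ctrl replicate 1 is the only control matched to P-KO. These values are therefore differences from that 1 mouse, which stood apart in Sfrp4 and Wif1. Rescaling to the same sum moved the median of all genes for the difference between the crosses from -0.04 to 0.09. In these fits a group of 2 mice was assumed to vary like its counterpart.

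Groups share replicate numbers, but the labels do not say that a number marks a litter. The deviations of mice with the same number from their group means correlated at 0.18, 0.26 and 0.05 in the Med23 cross, where each mouse correlated best with its own number, and at 0.00, -0.05 and -0.08 in the Runx2 cross, where that was not so. Between P-Ctrl and R-WT, which are of different crosses, a shared number cannot mark a litter. Mice with the same number correlated there at -0.09, 0.23 and 0.06. With the number as a replicate block, other WNT pathway genes called in the Med23 cross went from 0 to 3. All genes called in the Runx2 cross went from 247 to 90, and those for the difference between the crosses from 20 to 136. Between the control groups, where the block stands for no litter, they went from 5 to 2. Of the 10 inhibitors, the 1 called in the Med23 cross was then Sfrp4 in place of Sfrp1, and the 3 called in the Runx2 cross became 2, without Sfrp1. Which of the 10 were called is a description only, since these values guided the choice.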
